A study of Mus musculus with 6 samples.

Results

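The Ptgs2 locus is a window of mouse chromosome 1 around Ptgs2, which encodes cyclooxygenase-2. It was taken as every CTBP2 site whose centre lay between 149.90 and 150.12 Mb. The rule for a site is its position, but the locus itself was picked with earlier results of these data known, so shares of its sites set beside shares of all sites are a description. The window held 12 of the 62236 sites of the table, and each of the 12 is described here. CTBP2 was measured by chromatin immunoprecipitation and sequencing in mouse macrophages differentiated in culture from bone marrow. There were 3 libraries from cells given 100 ng/ml LPS for 3 h, set against 3 from cells given PBS as vehicle. LPS is lipopolysaccharide, a component of the outer membrane of Gram-negative bacteria. All cells came from wildtype male C57BL6/N mice of 6 to 12 weeks and were grown in medium with L929 cell supernatant. Replicates are numbered in the labels with no statement on whether each had its own mouse or culture, so every p-value reflects the spread among these 6 libraries alone, which may be technical. No input library and no RNA measurement was analysed here, so neither the level of Ptgs2 RNA nor the markers of the cell type could be examined.

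Cyclooxygenase-2 turns arachidonic acid into prostaglandin H2, from which terminal synthases make the prostaglandins of fever, pain and vessel leakage. Ptgs2 is a textbook inflammatory gene, low in resting macrophages and induced by LPS. CTBP2 is a transcriptional co-repressor that does not itself recognise a DNA sequence and is brought to chromatin by other proteins, among them ZEB repressors. Ptgs2 has 2 non-coding neighbours. Ptgs2os starts next to Ptgs2 and runs the other way. Ptgs2os2, known as lincRNA-Cox2, is a long non-coding RNA that LPS induces in macrophages and that starts downstream of Ptgs2.

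Site positions are those of the table and are read as GRCm39. Gene starts came from a GRCm38.p6 table, so the shift between them was measured from the data. Within 10 Mb of Ptgs2, 46 of 166 annotated gene starts had a site centre within 500 bp when all were moved by -124.25 kb. The next best distinct shift gave 22, and no shift gave 7. Distances below use that shift, which was searched in steps of 250 bp. The gene names in the table were not used, since they pair the 12 sites with Ptgs2 at 7 and Pla2g4a at 5 without it.

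No site covered the Ptgs2 start. The nearest, at chromosome 1, 149977845 to 149978845, lay 2.06 to 3.06 kb past it, inside the 8.20 kb gene. Whether it lies over an exon or an intron was not determined, because no exon table of this build was used. The Ptgs2os2 start, by contrast, was covered by a site at 150040295 to 150041295, whose centre was 65.0 kb past the Ptgs2 start. A further site, 63.0 kb past the start, had its centre inside Ptgs2os2, and no site had its centre inside Ptgs2os. The other 9 sites lay outside these genes. They were 73.5 kb before the Ptgs2 start and 12.2, 44.7, 51.5, 67.4, 97.7, 103, 110 and 119 kb past it. The RefSeq promoters of both gene starts (GRCm38.p6, 250 bases before to 50 after the start) are shown because one start carries a CTBP2 site and the other does not. The first is at chr1:150099781-150100080 on the plus strand and the second at chr1:150164899-150165198 on the minus strand. Capitals mark every match of the motifs searched.
Ptgs2: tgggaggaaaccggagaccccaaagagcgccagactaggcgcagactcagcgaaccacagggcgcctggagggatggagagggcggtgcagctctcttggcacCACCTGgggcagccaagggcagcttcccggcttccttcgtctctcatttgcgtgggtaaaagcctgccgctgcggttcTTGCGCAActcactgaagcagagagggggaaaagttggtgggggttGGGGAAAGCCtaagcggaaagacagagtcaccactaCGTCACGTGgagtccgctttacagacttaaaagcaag
Ptgs2os2: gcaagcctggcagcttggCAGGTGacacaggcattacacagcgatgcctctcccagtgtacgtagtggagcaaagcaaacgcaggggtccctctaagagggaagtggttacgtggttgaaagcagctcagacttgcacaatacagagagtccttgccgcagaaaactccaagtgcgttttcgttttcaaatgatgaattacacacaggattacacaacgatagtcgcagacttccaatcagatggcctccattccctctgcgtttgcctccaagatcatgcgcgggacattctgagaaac

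The motifs were searched on both strands. They were the C/EBP palindrome TTGCGCAA, the cAMP response element core CGTCA, the E-boxes CACGTG and CACCTG and the AP-1 pattern TGANTCA. A loose NF-kB-like pattern, GGG and CC with any 5 bases between, was also searched. The Ptgs2 promoter held TTGCGCAA 69 bases before the start, a motif found in 0.183% of the 32851 promoters of the table. It also held CACCTG, the E-box of ZEB proteins, 147 bases before the start, and the loose NF-kB-like pattern 23 bases before it. These were in 20.2% and 50.8% of promoters, the latter too common to mark an NF-kB element. CGTCA and CACGTG overlapped, 13 and 16 bases past the start, and were in 20.8% and 7.15% of promoters. The Ptgs2os2 promoter held 1 match, a CACCTG on the strand opposite to the printed one, which reads CAGGTG there, beginning 232 bases before the start. Neither held TGANTCA, which 7.81% of promoters had. A match is a stretch of letters and not a measured binding site. Positions are counted from the RefSeq start, and whether transcription begins there in these cells was not examined.

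Signal is given in multiples of the library median, so that 1 is the median site of that library. This scaling was used because the deposited medians differed within groups, at 37.1, 48.8 and 61.0 in LPS replicates 1, 2 and 3 and 35.5, 37.3 and 73.0 in vehicle replicates 1, 2 and 3. Values of up to 300 steps in each column were whole multiples of 1 step within 0.1 step. Whether that step is 1 read was not established for every column, and no count test was run. If it is, the 12 sites held 6 to 204 reads per library, and the libraries 3243258 to 4553177 in all sites. Log2 folds were fitted on log2(scaled value + 1) and understate changes at low sites. The test was limma over all 62236 sites with Benjamini-Hochberg adjustment.

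**Figure D1:**
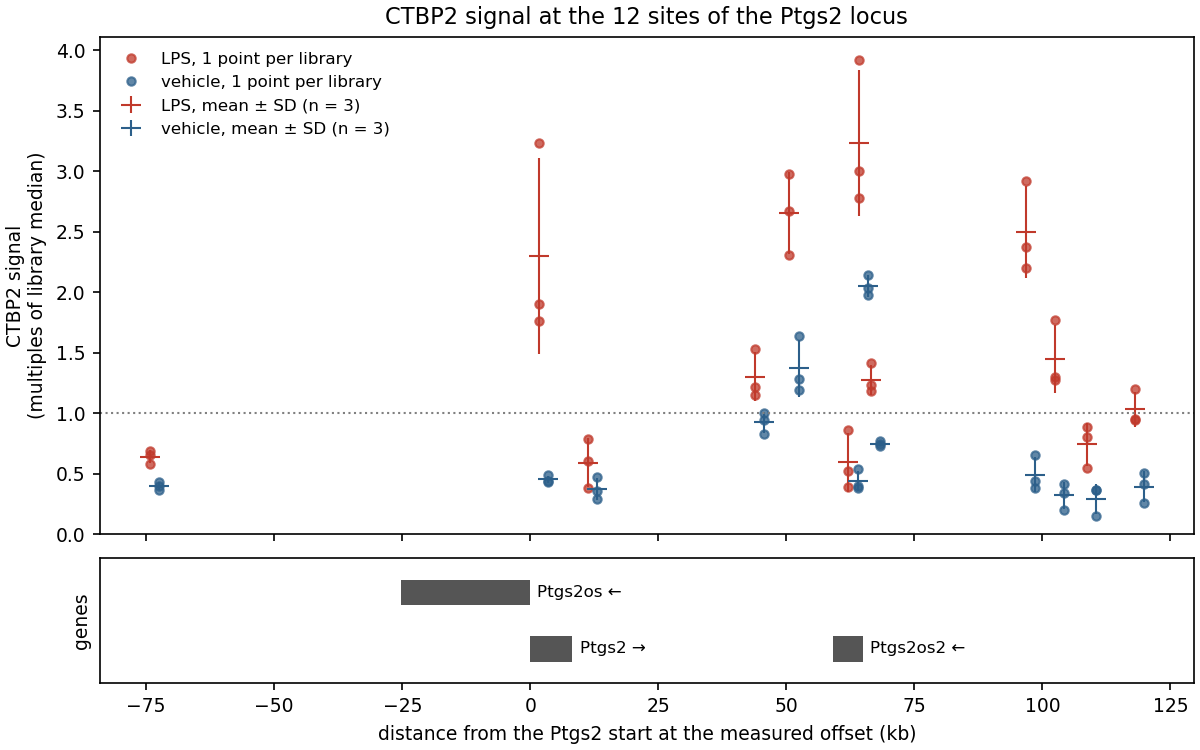
CTBP2 signal in multiples of the library median (vertical axis) at the 12 sites against their distance in kb from the Ptgs2 start, with 1 point per library and the mean ± SD (n = 3) for LPS (red, drawn slightly left) and vehicle (blue, drawn slightly right). The lower panel shows gene spans at the measured shift. The tallest site in both groups is at the Ptgs2os2 start, and the sites 2.56, 97.7 and 103 kb past the Ptgs2 start stand well above vehicle in all LPS libraries.

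CTBP2 signal was higher in LPS at most sites of the Ptgs2 locus. By limma, 9 of the 12 sites were higher at an adjusted p under 0.05, where 16.1% of all sites were, and 0 were lower, where 13.5% of all sites were. None of the 12 was lower at an unadjusted p under 0.05 either. The log2 fold was above 0 at all 12 sites, from 0.36 to 2.32. Its median over the 12 was 0.85, against -0.02 over all sites. Whether peaks were called per library is not known, so a site weak in vehicle may be in the table through its LPS signal. The folds and vehicle percentiles of such sites are therefore a description. In 10 of the 12 each LPS library was above every vehicle library, where 21.6% of all sites were so ordered. Of the 9 limma calls 6 were lost when limma was run without the scaling. On the deposited values without scaling, limma called 3 of the 12 higher, where 1.89% of all sites were, and 0 lower, where 0.0482% of all sites were. Over all sites, 54.4% of calls were higher on the scaled values and 97.5% on the deposited ones. By the authors' deposited FDR under 0.05, 5 of the 12 were higher in LPS, where 4.01% of all sites were, and 0 were lower, where 0.37% were. They are the site inside Ptgs2 and the 4 sites more than 90 kb past its start. The authors' deposited table gives them log2 folds of 1.83, 1.97, 1.84, 0.955 and 1.16 in order of position. These are the authors' own estimates and a different measure from the limma log2 folds below, which are larger at each of the 5 sites.

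The site inside Ptgs2, 2.56 kb past the start, rose, with the second largest log2 fold of the 12. Its signal was 1.91, 1.76 and 3.23 in LPS replicates 1, 2 and 3, against 0.439, 0.436 and 0.487 in vehicle replicates 1, 2 and 3. The lowest LPS library was above the highest vehicle library, and LPS replicate 3 stood above the other LPS libraries. Means were 2.30 ± 0.809 in LPS and 0.454 ± 0.0286 in vehicle (SD, n = 3 each), a ratio of 5.07. The log2 fold was 2.24 with SE 0.20 and a limma adjusted p of 3.16e-10, and 0.281% of all sites had a larger one. In LPS the site stood at the 88.0th percentile of all sites and in vehicle at the 6.71st.

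A second group of gains lay far past the gene. The 4 sites more than 90 kb past the Ptgs2 start, beyond Ptgs2os2, were all called. The first, 97.7 kb past the start (chromosome 1, 150072934 to 150073934), had 2.37, 2.20 and 2.92 in LPS, against 0.439, 0.655 and 0.385 in vehicle. The groups did not overlap, and its log2 fold of 2.32 with SE 0.19 and a limma adjusted p of 4.26e-11 was the largest of the 12. The next, 103 kb past the start (150078540 to 150079540), had 1.30, 1.27 and 1.77 in LPS, against 0.342, 0.418 and 0.205 in vehicle. LPS signal there was at the 70.1st percentile of all sites and vehicle signal at the 1.16th. The log2 fold was 2.14 with SE 0.24 and a limma adjusted p of 3.21e-08. These 2 sites and the one inside Ptgs2 were the 3 that also passed limma on the deposited values.

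The outer sites of this group changed less. The site 119 kb past the start (150094213 to 150095213) had 0.954, 1.20 and 0.942 in LPS, against 0.415, 0.509 and 0.256 in vehicle. The log2 fold there was 1.39 with SE 0.25 and a limma adjusted p of 6.54e-05. The site 110 kb past the start (150084919 to 150085919) had 0.884, 0.545 and 0.808 in LPS, against 0.366, 0.364 and 0.154 in vehicle. There the log2 fold was 1.34 with SE 0.34 and a limma adjusted p of 0.00305, and its vehicle mean, 0.294 ± 0.122 (SD, n = 3), was the lowest of the 12. The groups did not overlap at either site. By limma both lost the call on the deposited values, where the log2 folds were 1.45 and 1.41 (limma adjusted p = 0.0965 and 0.233). The authors' deposited FDR was under 0.05 at both, 0.00887 and 0.0404.

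The site over the lincRNA-Cox2 start was the highest of the locus in both groups and rose less. It had 3.00, 2.78 and 3.92 in LPS, against 2.15, 2.04 and 1.97 in vehicle, and the groups did not overlap. Means were 3.23 ± 0.606 in LPS and 2.05 ± 0.0872 in vehicle (SD, n = 3 each), at the 95.7th and 84.3rd percentiles of all sites. The log2 fold was 0.64 with SE 0.15 and a limma adjusted p of 0.00122, and on the deposited values it was 0.70 and did not pass (limma adjusted p = 0.740).

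The sites 44.7 and 51.5 kb past the start, before lincRNA-Cox2, and 67.4 kb past it, just beyond, also rose. At 51.5 kb past the start (150026754 to 150027754) the signal was 2.67, 2.31 and 2.98 in LPS, against 1.20, 1.64 and 1.28 in vehicle, without overlap. Its log2 fold was 0.95 with SE 0.16 and a limma adjusted p of 2.57e-05. At 67.4 kb (150042679 to 150043679) it was 1.42, 1.18 and 1.23 in LPS, against 0.732, 0.745 and 0.769 in vehicle, again without overlap. The log2 fold there was 0.75 with SE 0.18 and a limma adjusted p of 0.00187. At 44.7 kb (150019996 to 150020996) the signal was 1.53, 1.22 and 1.15 in LPS, against 0.829, 1.00 and 0.949 in vehicle. Its log2 fold was 0.48 with SE 0.18 and a limma adjusted p of 0.0436. That call was lost without LPS replicate 1, LPS replicate 2, vehicle replicate 1 or vehicle replicate 2, where the log2 fold was 0.35, 0.52, 0.40 and 0.53. It was also lost with scaling by column sum and without limma's trend and robust options (limma adjusted p = 0.0543 and 0.0642). On the deposited values the log2 folds of these sites were 1.01, 0.81 and 0.54, and none passed (limma adjusted p = 0.404, 0.604 and 0.895).

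The other 3 sites had weak signal and did not pass. The site 73.5 kb before the start (149901827 to 149902827), on the side of Pla2g4a, had 0.582 to 0.691 in LPS and 0.366 to 0.436 in vehicle, with a log2 fold of 0.65 (limma adjusted p = 0.0754). Its groups did not overlap. The site 12.2 kb past the start (149987435 to 149988435), beyond the end of Ptgs2, had 0.382 to 0.788 in LPS and 0.293 to 0.473 in vehicle. Its log2 fold was 0.60 (limma adjusted p = 0.173). The site 63.0 kb past the start (150038291 to 150039291), inside lincRNA-Cox2, had 0.395 to 0.865 in LPS and 0.385 to 0.536 in vehicle, with a log2 fold of 0.36 (limma adjusted p = 0.400). In both of these the groups overlapped.

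**Figure D2:**
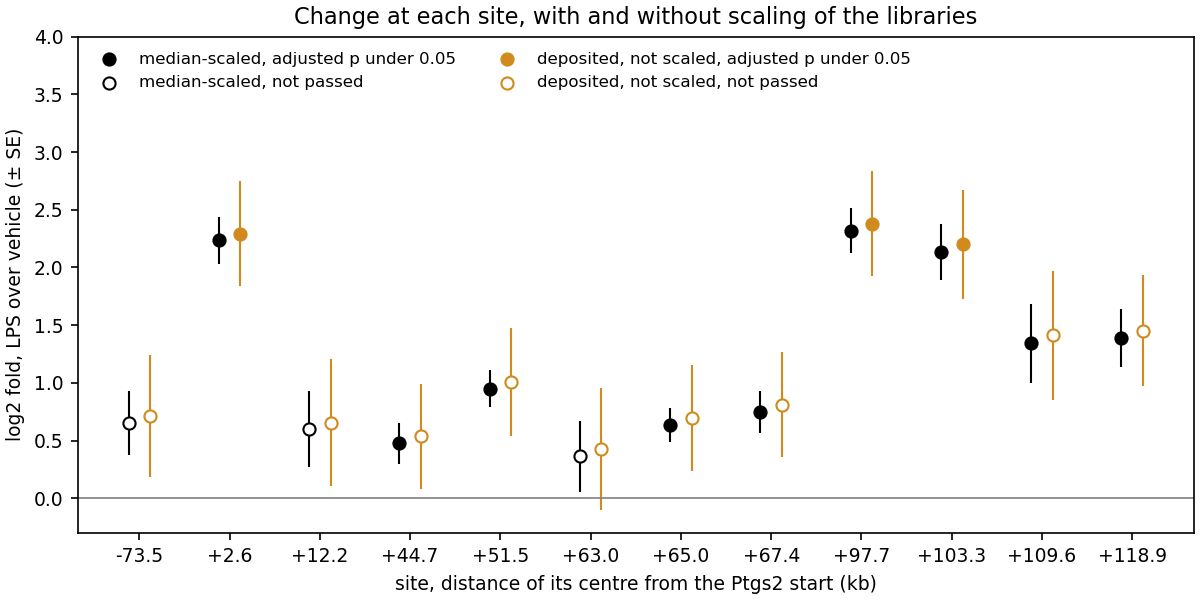
Log2 fold of LPS over vehicle with its SE (vertical axis) at each of the 12 sites, ordered by the distance of their centres from the Ptgs2 start in kb (horizontal axis), on median-scaled values (black) and deposited values without scaling (orange). Filled points passed limma's adjusted p under 0.05. The folds are nearly equal under both while the SE is wider without scaling, and 9 sites passed with scaling and 3 without.

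The sites also differed in the order of their mean signal. In LPS the lincRNA-Cox2 start site, at 3.23 ± 0.606, the site at 51.5 kb, at 2.65 ± 0.336, that at 97.7 kb, at 2.50 ± 0.378, and the one inside Ptgs2, at 2.30 ± 0.809, had ranges that overlapped (SD, n = 3 each), although the lincRNA-Cox2 start site was the highest in each library. The sites at 103, 44.7, 67.4 and 119 kb followed, with means of 1.45, 1.30, 1.28 and 1.03, and neighbours in that order overlapped. The last 4 had means of 0.592 to 0.746, overlapped one another and lay below these. In vehicle the site at the lincRNA-Cox2 start led with 2.05 ± 0.0872, above all others in each library. The site 51.5 kb past the start followed with 1.37 ± 0.234 (SD, n = 3). The sites at 44.7 and 67.4 kb had 0.926 ± 0.0876 and 0.749 ± 0.0190 and did not overlap each other. The other 8 had means of 0.294 to 0.493, and neighbours in that order overlapped. Of the 12 sites 4 had a mean below the median site in LPS and 10 in vehicle.

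Summed over the 12 sites, the signal was 17.6, 16.1 and 21.3 library medians in LPS, against 8.10, 9.07 and 7.64 in vehicle. The groups did not overlap, and the ratio of means was 2.22. The log2 difference was 1.14 (exact two-sided permutation p = 0.1, the smallest that 3 against 3 libraries can give). The site inside Ptgs2 held 10.8%, 11.0% and 15.2% of that sum in LPS, against 5.42%, 4.81% and 6.38% in vehicle. The difference was 6.79 percentage points (exact two-sided permutation p = 0.1). The 4 sites more than 90 kb past the start held 31.3% ± 1.09 in LPS and 17.9% ± 4.34 in vehicle (SD, n = 3 each, exact two-sided permutation p = 0.1). The lincRNA-Cox2 start site held 17.6% ± 0.754 in LPS and 24.9% ± 2.18 in vehicle (SD, n = 3 each, exact two-sided permutation p = 0.1). None of these shares overlapped between the groups.

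Ratios between sites of 1 library do not depend on how libraries are scaled. Each of the other 11 sites was therefore divided by the lincRNA-Cox2 start site of the same library, a comparison chosen after the data were seen. The site inside Ptgs2 had a ratio of 0.636, 0.634 and 0.824 in LPS, against 0.205, 0.214 and 0.247 in vehicle. At 97.7 kb the ratio was 0.791, 0.791 and 0.745 in LPS, against 0.205, 0.321 and 0.195 in vehicle. At 103 kb it was 0.434, 0.457 and 0.451 in LPS, against 0.159, 0.205 and 0.104 in vehicle. Mean ratios at these 3 sites were 3.15, 3.23 and 2.87 times as high in LPS as in vehicle, without overlap of libraries. The site at 110 kb also did not overlap, with 0.232 ± 0.0543 in LPS and 0.142 ± 0.0559 in vehicle (SD, n = 3 each). For these 4 sites the exact two-sided permutation p was 0.1, the smallest possible, and 0.275 after Benjamini-Hochberg adjustment over the 11. Of the 62235 other sites of the table, 4.52% had ratios to the same site that were above all vehicle libraries in all LPS libraries, against these 4 of 11. Ratios below all vehicle libraries were found at 60.5% of those sites and at 0 of the 11. The divisor itself rose in LPS, with a log2 fold of 0.64 against a median of -0.02 over all sites. A site without change therefore tends to fall in ratio, so both shares over all sites are partly set by the choice of divisor. The other 7 ratios overlapped between the groups, with mean ratios 0.845 to 1.73 times as high in LPS as in vehicle.

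**Figure D3:**
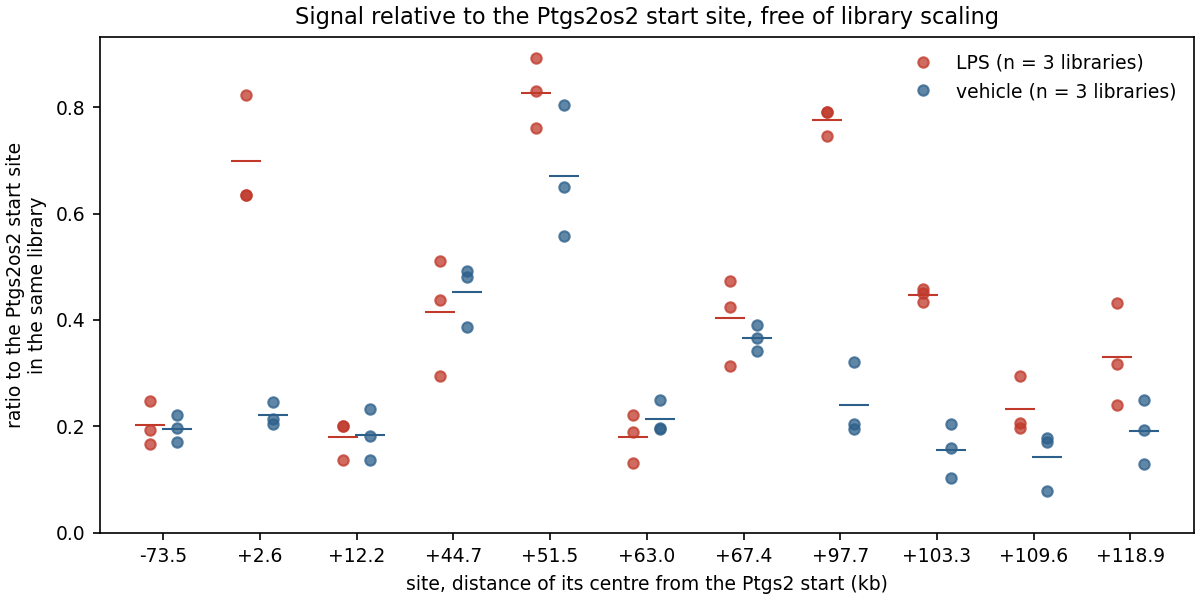
Signal of 11 sites divided by that of the lincRNA-Cox2 (Ptgs2os2) start site of the same library (vertical axis, no unit), ordered by distance from the Ptgs2 start in kb (horizontal axis), with 1 point per library and a bar at the mean, for LPS (red, left) and vehicle (blue, right). At the sites 2.56, 97.7 and 103 kb past the start the LPS points lie clear of the vehicle points, while the groups mix at those from 44.7 to 67.4 kb.

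The outermost sites inside the window were those 73.5 kb before and 119 kb past the start, described above. The first site outside on the left, 84.4 kb before the Ptgs2 start and 54.4 kb upstream of Pla2g4a, had 1.29 ± 0.220 in LPS and 0.419 ± 0.215 in vehicle. The first on the right, 152 kb past the start, had 0.879 ± 0.117 in LPS and 0.348 ± 0.0842 in vehicle (SD, n = 3 each). Their log2 folds were 1.69 and 1.30 (limma adjusted p = 0.000117 and 0.000334), and the groups did not overlap at either. On the deposited values the left one passed and the right one did not (limma adjusted p = 0.0133 and 0.184). Gains thus ran past both edges of the window, and the left site is also counted among those of Pla2g4a below.

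**Figure D4:**
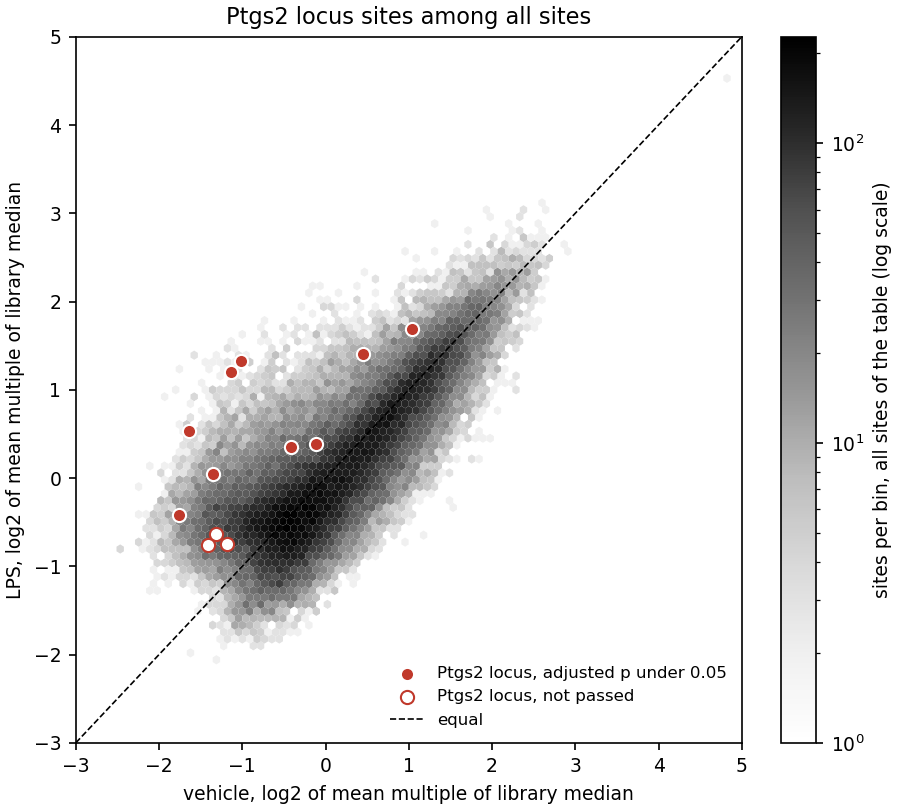
Log2 of the mean signal in multiples of the library median in LPS (vertical axis) against vehicle (horizontal axis), with all sites as grey bins (darker for more sites, log scale, 9 of 62236 outside the axes) and the 12 Ptgs2 locus sites in red, filled where they passed limma's test. All 12 lie above the line of equal signal, and 8 of them are at the low vehicle end of the sites, with vehicle means of 0.294 to 0.493.

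Sites elsewhere with a like pattern were sought by the root mean square difference of log2(scaled value + 1) from the site inside Ptgs2 over the 6 libraries. The 5 closest outside the window, 1 per gene, differed by 0.204 to 0.254. The nearest placed protein-coding starts were those of Crtc1 (11.0 kb away), Saa3 (2.14 kb), Slc39a8 (155 kb), Cd44 (57.9 kb) and Smad6 (9.91 kb). Saa3 encodes an acute phase serum amyloid A and Cd44 a receptor for hyaluronan. Crtc1 encodes a CREB coactivator, Slc39a8 a zinc transporter and Smad6 an inhibitory SMAD. At the Saa3 site the signal averaged 2.31 in LPS and 0.471 in vehicle, close to the 2.30 and 0.454 of the site inside Ptgs2. The 5 log2 folds were 2.01 to 2.32. Likeness was measured on the same values, so these folds are a description.

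Other genes of the prostanoid and leukotriene pathway were read from a list of 28, by the sites whose nearest placed protein-coding start was theirs and within 100 kb. Of the 28 genes 21 had such sites, 151 in all outside the Ptgs2 window. By limma 37 of the 151, or 24.5%, were higher in LPS and 22, or 14.6%, were lower, where 16.1% and 13.5% of all sites were. Their median log2 fold was 0.00, against -0.02 over all sites. On the deposited values 7 of the 151 were higher and 0 lower, where 1.89% and 0.0482% of all sites were, so most higher calls and all lower calls of this list were made on scaled values alone. The folds of the genes named below kept their sign and about their size on the deposited values.

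Supply of the substrate comes first in the pathway. Pla2g4a, the neighbour of Ptgs2, encodes the phospholipase that frees arachidonic acid, and 10 of its 23 sites were higher and 0 lower. Its site with the smallest adjusted p (chromosome 1, 149732231 to 149733231, 65.5 kb past the nearer of its starts) had 2.79, 2.51 and 3.35 in LPS, against 1.41, 1.51 and 1.13 in vehicle. The groups did not overlap, and the log2 fold was 1.08 with SE 0.16 and a limma adjusted p of 3.04e-06. On the deposited values 1 of the 23 sites was higher, the one just outside the window, 84.4 kb before the Ptgs2 start. The site with the smallest adjusted p, with a log2 fold of 1.14 there, was not called (limma adjusted p = 0.271).

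At the other cyclooxygenase gene the calls were of lower signal. Ptgs1, which encodes the constitutive cyclooxygenase-1, had 5 of 7 sites lower and 0 higher on the scaled values. Its leading site (chromosome 2, 36124114 to 36125114, 4.19 kb past the start) had 0.988 ± 0.124 in LPS and 2.21 ± 0.523 in vehicle (SD, n = 3 each), without overlap. The log2 fold was -1.13 with SE 0.18 and a limma adjusted p of 7.28e-06 and -1.07 on the deposited values, where it did not pass (limma adjusted p = 0.341) and 0 of the 7 sites were called.

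Among the terminal synthases most higher calls were at Ptges. It encodes microsomal prostaglandin E synthase-1, which acts with cyclooxygenase-2 to make prostaglandin E2. Of its 14 sites 12 were higher and 0 lower, and 4 were higher on the deposited values. Its leading site (chromosome 2, 30802854 to 30803854, 10.1 kb upstream of the start) had 3.61, 3.89 and 3.79 in LPS, against 0.488, 0.418 and 0.641 in vehicle. LPS over vehicle gave a log2 fold of 2.84 with SE 0.17 and a limma adjusted p of 5.13e-14, above that of every site of the Ptgs2 window. Hpgds, which encodes the haematopoietic prostaglandin D synthase, had 4 of 9 sites lower and 1 higher, and 0 called on the deposited values. Its leading site (chromosome 6, 65141206 to 65142206, 20.0 kb upstream) had 0.908 ± 0.0202 in LPS and 1.98 ± 0.220 in vehicle (SD, n = 3 each). Its log2 fold was -1.10 (limma adjusted p = 4.53e-06), and -1.04 on the deposited values (limma adjusted p = 0.363).

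The genes described are the 6 with the smallest adjusted p, and the other 2 are Abcc4 and Alox12. Abcc4 encodes a transporter that exports prostaglandins, and 6 of its 16 sites were higher and 1 lower. Its leading site, 38.4 kb past the start, had 1.76 ± 0.432 in LPS and 0.610 ± 0.0423 in vehicle (SD, n = 3 each). This gave a log2 fold of 1.47 (limma adjusted p = 3.12e-07). Alox12, a lipoxygenase gene, had 2 of 4 sites higher, led by one 1.07 kb past its start with 6.13 ± 0.485 in LPS and 3.14 ± 0.206 in vehicle (SD, n = 3 each). Its log2 fold was 0.96 (limma adjusted p = 5.00e-07), and 1.02 on the deposited values (limma adjusted p = 0.291). Of the 9 prostanoid receptor genes 7 had sites, 31 in all, of which 3 were higher and 3 lower. The 4 genes of breakdown and transport, Abcc4 among them, had 6 of 23 sites higher and 3 lower, and the 6 leukotriene and lipoxygenase genes had 4 of 25 higher and 5 lower. Over all sites 16.1% were higher and 13.5% lower, and these small counts are a description.

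**Figure D5:**
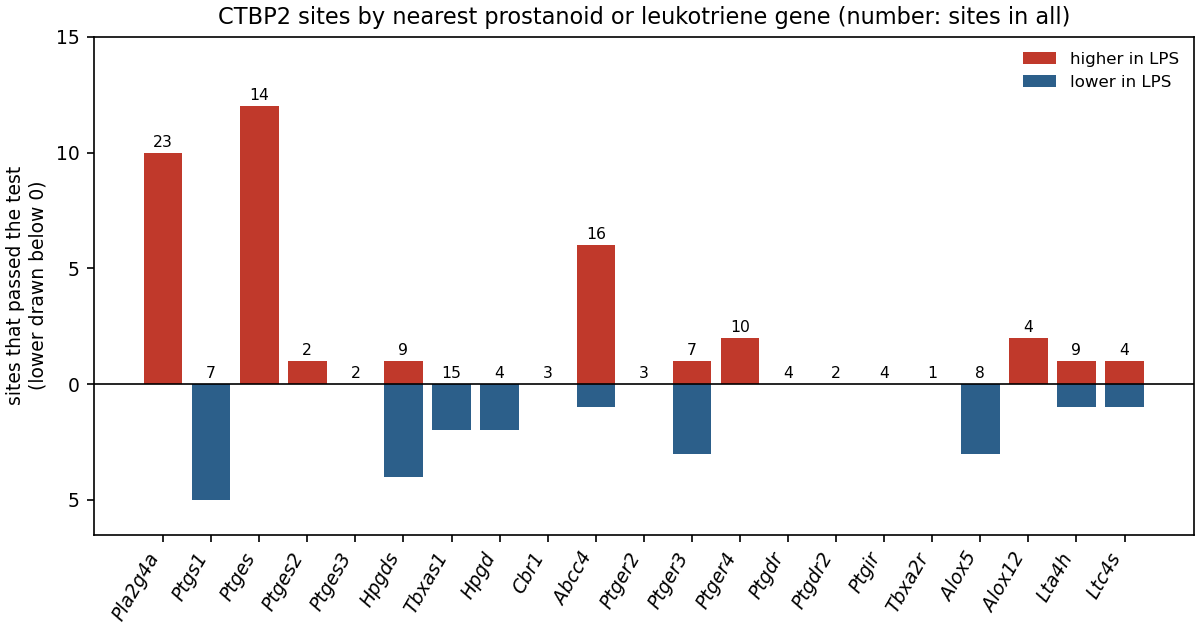
Number of CTBP2 sites called higher in LPS (red, above 0) and lower in LPS (blue, below 0) by limma on median-scaled values (vertical axis) for the 21 list genes with sites (horizontal axis), with the number of sites of each gene above its bar. Pla2g4a has 10 higher of 23 and Ptges 12 higher of 14, while Ptgs1 has 5 lower of 7. On the deposited values without scaling none of the lower calls remains.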

How the data were processed

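Cells were fixed with DSG and formaldehyde, per the labels' protocols. The authors deposited 1 table with a normalised signal per site and library. Tools named in the submitters' processing notes, with no role or order, include BWA 0.7.17, SAMtools 1.9 and Picard 3.2.0. MACS3 3.0.0a5 and DiffBind 3.16 are listed, with R 4.4.1, beside deepTools 3.5.1, FastQC and bedtools, and mm10, mm39 and GRCm39 as builds. No source used here gives the factor behind the signal or says whether peaks were called per library. The table also holds the authors' log2 concentrations and log2 fold, their p-value and FDR, and distances to named genes, which follow other coordinates and were not used.

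Each signal column was divided by its median and multiplied by the geometric mean of the medians. limma 3.58.1 (R 4.3.3, trend and robust) was run on log2(value + 1) over all sites, without covariates, and checked on simulated data. Single values were compared by exact permutation (SciPy 1.17.1). Site positions were related to gene starts by a dynamic programming path of shifts up to 1000 kb (penalty 12, assumed share 0.35). With the path fitted on every other start, 32.6% of 16309 held-out starts had a site within 500 bp, against 4.68% without a shift. All named sites follow the rule of nearest start, leading sites by smallest adjusted p, and the closest 5 by likeness. The members and the gene list were chosen with earlier results of these data known. A count model was not used, since the values are normalised.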

Additional observations from a re-analysis of the deposited data

How the results depend on the processing

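The sites inside Ptgs2 and 97.7 and 103 kb past its start kept direction and call under all 16 alternatives, with log2 folds of 1.97 to 2.40, 2.14 to 2.53 and 1.86 to 2.34. Direction held at all 12 sites under every alternative that could be fitted. Without scaling the locus count of higher sites was 3, and over all sites 1178 were higher and 30 lower, against 10034 and 8409 with it. At an adjusted p under 0.01 the sites lower over all sites numbered 4699. Leaving out 1 library at a time gave 8 to 9 higher sites in the locus, 7691 to 10081 higher and 6032 to 7913 lower over all sites, a summed log2 difference of 1.03 to 1.23 and a gain in share of 5.36 to 7.55 percentage points. Without limma's trend and robust options the site 73.5 kb before the start passed (limma adjusted p = 0.0122) and that 44.7 kb past it did not (0.0642), so 9 were still higher. With the lowest 25% of sites left out, 8 of the 12 were tested, a low vehicle site staying in through its LPS values, so their count is not read. Under that filter 24 sites of the prostanoid list were higher, against 37 with all sites, and 7365 of the 46677 sites tested over the whole table were. List sites that were left out were not tested, so the drop is not read as lost calls.

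With the replicate number as a block 9 locus sites were higher, and 11692 sites were higher and 10398 lower over all sites. Same-numbered libraries correlated in their deviations from the group means at 0.111, 0.0385 and 0.214 for numbers 1, 2 and 3, the last being the highest of all pairs. Among differently numbered libraries LPS replicate 1 and vehicle replicate 2 had the highest value (0.148), and all other such pairs were negative. These values do not settle whether the numbers pair the samples, and the main test did not pair them. The planned edgeR and DESeq2 fits were not run, because the deposited values are not counts.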
